A study of Mus musculus with 7 samples.

Results

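The genes described here are 35 regulators and structural parts of mitosis, chosen by name from the 53715 mouse genes of the expression table: cyclins and kinases that start mitosis, the spindle checkpoint, kinetochore proteins, mitotic kinesins and proteins of mitotic exit. All 35 names matched exactly 1 gene. They were measured by RNA-seq in 2 libraries of cells given R406 and 2 libraries of cells given the solvent DMSO. R406, the active form of the drug fostamatinib, blocks the tyrosine kinase Syk. All 4 libraries came from OG2 mouse embryonic fibroblasts taken at embryonic day 13.5. OG2 is the strain CBA-Tg(Pou5f1-EGFP)2Mnn/J, in which Pou5f1 sequence drives a green fluorescent reporter. Nothing in the labels says that the 2 libraries of a group came from separate cultures, and the p-values here measure only a spread between libraries that may be technical. The cells were kept in the Stage 1 medium of chemical reprogramming for a protocol of 12 days. This medium holds EPZ004777, AM580, Forskolin, Parnate, 616452, CHIR99021 and VPA, together with vitamin C and bFGF. The labels call the cells intermediates of reprogramming, and give neither the day of RNA harvest nor the concentration of R406. Binding of a FLAG-tagged protein was mapped by CUT&Tag, an assay in which a transposase tethered to an antibody cuts nearby DNA, in 1 library of cells given R406 and 1 library of cells given DMSO, both for 4 days. Those cells were fibroblasts of the same strain, also of embryonic day 13.5, in Stage 1 medium with doxycycline. They carried lentiviral rtTA and a doxycycline-driven, FLAG-tagged Nfatc1, so their peaks are those of an introduced protein.

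A cell that is to divide builds up the B-type cyclins and their kinase Cdk1 during G2, and the active complex drives it into mitosis. Kinetochores then join chromosomes to the spindle, the spindle checkpoint holds the anaphase-promoting complex (APC/C) in check until all chromosomes are attached, and its release destroys securin and the cyclins. Most genes of this programme are transcribed together late in the cycle by the MuvB complex with B-MYB (Mybl2) and FOXM1, which act at a promoter element called the cell cycle genes homology region (CHR), often with CCAAT boxes bound by NF-Y just upstream. In resting cells MuvB joins p130 (Rbl2) and E2F4 in a repressor complex at the same element.

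Mitosis genes measured higher in R406-treated cells in nearly every case. Of the 35 genes, 34 averaged 1 TPM or more across all libraries and were tested, and 19 rose with R406 and 0 fell (limma on log2(TPM + 1), Benjamini-Hochberg adjusted p under 0.05 over 13929 genes), where 4.26% of all genes tested rose and 4.05% fell. At an unadjusted p under 0.05, 33 were higher and 0 lower, against 12.3% and 14.5% of all genes tested. In 34 of the 35 genes both R406 libraries lay above both DMSO libraries, an order seen in 25.9% of all genes tested, and the opposite order, seen in 30.2% of them, was found in 0 members. Their median log2 difference was 1.48, against −0.02 for all genes tested. TPM is the share of a transcript, per length, in a fixed total, and keeps no depth. Summed over the 35 genes it was 549.7 and 421 in the R406 libraries, against 142 and 183 in the DMSO libraries. The R406 libraries therefore held about 2.99 times the summed mitotic RNA, in a total that is the same for each. The number of reads behind these values is unknown. In RNA from bulk cultures, more dividing cells and more RNA per dividing cell cannot be told apart.

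Promoters of 7 mitosis genes are printed here because most of them carry the elements through which this programme is known to be transcribed. Each is 300 bases of RefSeq sequence on GRCm38.p6, 250 bases before the start of the transcript and 50 after, read 5′ to 3′ in the direction of the gene, and capitals mark CHR (TTTGAA or TTCGAA) and CCAAT on either strand. The windows are Cdc20, chr4:118437294-118437593, minus strand, Plk1, chr7:122159185-122159484, plus strand, Ccnb2, chr9:70421505-70421804, minus strand and Ube2c, chr2:164769679-164769978, plus strand, followed by Cenpa, chr5:30666636-30666935, plus strand, Birc5, chr11:117848987-117849286, plus strand and Anln, chr9:22389157-22389456, minus strand. The first 6 belong to genes that rose with R406, with Birc5 as a window that holds neither motif, and the last is that of Anln, the 1 tested gene with a negative difference. These 7 were chosen after the expression values were seen.

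Cdc20: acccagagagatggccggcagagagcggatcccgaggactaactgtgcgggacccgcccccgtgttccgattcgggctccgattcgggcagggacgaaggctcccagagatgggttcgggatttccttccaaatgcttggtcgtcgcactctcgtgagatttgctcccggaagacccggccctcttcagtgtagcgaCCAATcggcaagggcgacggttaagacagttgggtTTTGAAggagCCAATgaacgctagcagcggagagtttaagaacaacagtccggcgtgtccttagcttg
Plk1: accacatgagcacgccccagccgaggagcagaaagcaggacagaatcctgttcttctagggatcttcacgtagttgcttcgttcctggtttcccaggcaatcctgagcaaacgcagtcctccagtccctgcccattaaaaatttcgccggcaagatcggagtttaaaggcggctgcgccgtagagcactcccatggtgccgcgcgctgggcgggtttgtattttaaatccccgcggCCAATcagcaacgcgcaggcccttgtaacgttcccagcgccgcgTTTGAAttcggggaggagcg
Ccnb2: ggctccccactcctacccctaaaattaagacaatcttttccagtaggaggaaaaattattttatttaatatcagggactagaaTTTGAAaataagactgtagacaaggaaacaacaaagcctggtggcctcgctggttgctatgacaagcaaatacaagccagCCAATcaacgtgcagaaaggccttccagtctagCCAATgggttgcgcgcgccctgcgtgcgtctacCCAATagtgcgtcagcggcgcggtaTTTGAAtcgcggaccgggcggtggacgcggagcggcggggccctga
Ube2c: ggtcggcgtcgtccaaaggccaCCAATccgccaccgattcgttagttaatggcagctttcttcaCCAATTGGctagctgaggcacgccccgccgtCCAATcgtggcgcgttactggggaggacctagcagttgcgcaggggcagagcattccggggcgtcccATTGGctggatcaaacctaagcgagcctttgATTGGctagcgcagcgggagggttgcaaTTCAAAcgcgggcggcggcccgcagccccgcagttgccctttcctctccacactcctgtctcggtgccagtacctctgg
Cenpa: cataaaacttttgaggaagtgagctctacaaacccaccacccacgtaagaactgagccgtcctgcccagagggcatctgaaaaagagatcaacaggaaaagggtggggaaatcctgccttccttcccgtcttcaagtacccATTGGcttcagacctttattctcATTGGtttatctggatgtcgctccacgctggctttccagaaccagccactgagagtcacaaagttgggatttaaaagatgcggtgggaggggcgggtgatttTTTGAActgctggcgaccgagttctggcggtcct
Birc5: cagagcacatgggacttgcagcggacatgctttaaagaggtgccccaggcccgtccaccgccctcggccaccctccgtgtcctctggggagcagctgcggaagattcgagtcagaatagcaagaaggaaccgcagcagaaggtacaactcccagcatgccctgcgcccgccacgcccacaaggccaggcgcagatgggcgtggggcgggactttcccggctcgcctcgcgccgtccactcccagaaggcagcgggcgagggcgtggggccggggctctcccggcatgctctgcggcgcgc
Anln: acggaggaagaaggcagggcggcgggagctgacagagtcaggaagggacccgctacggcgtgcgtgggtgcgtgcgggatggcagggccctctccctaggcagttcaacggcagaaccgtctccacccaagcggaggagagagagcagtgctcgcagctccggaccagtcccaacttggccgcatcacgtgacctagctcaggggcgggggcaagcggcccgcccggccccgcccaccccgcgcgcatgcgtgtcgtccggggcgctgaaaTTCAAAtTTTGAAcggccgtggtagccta

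In Cdc20 and Plk1 a CHR lies at −18 and 30 bases from the start, counted to its first base with the start as 0, with CCAAT boxes at −53 and −8 bases in Cdc20 and at −14 bases in Plk1. Ccnb2 shows 3 CCAAT boxes at −87, −54 and −21 bases, between a CHR at −167 bases and another at 4 bases. In Ube2c 6 CCAAT boxes were found between −228 and −57 bases, of which those at −186 and −183 overlap on opposite strands, and 1 CHR lies on the other strand, as TTCAAA, at −29 bases. Cenpa has 2 CCAAT boxes on the other strand, as ATTGG, at −109 and −86 bases, and a CHR at 16 bases. The window of Anln holds 2 CHR matches, at 21 and 28 bases, and no CCAAT.

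Of the 6 genes of cyclins, Cdk1 and its direct partners, 3 rose: both B cyclins and Cdc25c. Ccnb1 (cyclin B1) measured 10.0 and 8.90 TPM in the R406 libraries, against 1.30 and 3.26 TPM in the DMSO libraries, and it rose (log2 1.74 ± 0.34 SE, limma adjusted p = 0.0478). Ccnb2 (cyclin B2), whose promoter carries a CHR and 3 CCAAT boxes, stood at 18.4 and 12.5 TPM with R406 and 2.25 and 4.35 TPM with DMSO, and rose as well (log2 1.95 ± 0.33, adjusted p = 0.0370). For both genes the higher DMSO library, replicate 2, stayed well below the lower R406 library. Cdc25c, the phosphatase that activates Cdk1, rose to 3.02 and 2.75 TPM in R406-treated cells, against 0.639 and 0.877 TPM in DMSO-treated cells (adjusted p = 0.0352). Cyclin A2, encoded by Ccna2 and active from S phase into early mitosis, had 10.4 and 8.91 TPM with R406 and 2.33 and 4.10 TPM with DMSO, and missed the threshold narrowly (log2 1.37 ± 0.27, adjusted p = 0.0504). Cdk1 itself missed it by as little, at 16.8 and 8.70 TPM with R406 and 2.60 and 3.40 TPM with DMSO (log2 1.72 ± 0.34, adjusted p = 0.0502), and its R406 libraries lay far apart. Cks2, a small subunit that binds Cdk1, was the most abundant of the 35 genes in both groups and had a ratio of mean TPM of 1.55, at 74.4 and 73.2 TPM with R406 and 47.7 and 47.4 TPM with DMSO (log2 0.62 ± 0.17, adjusted p = 0.0965).

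**Figure D1:**
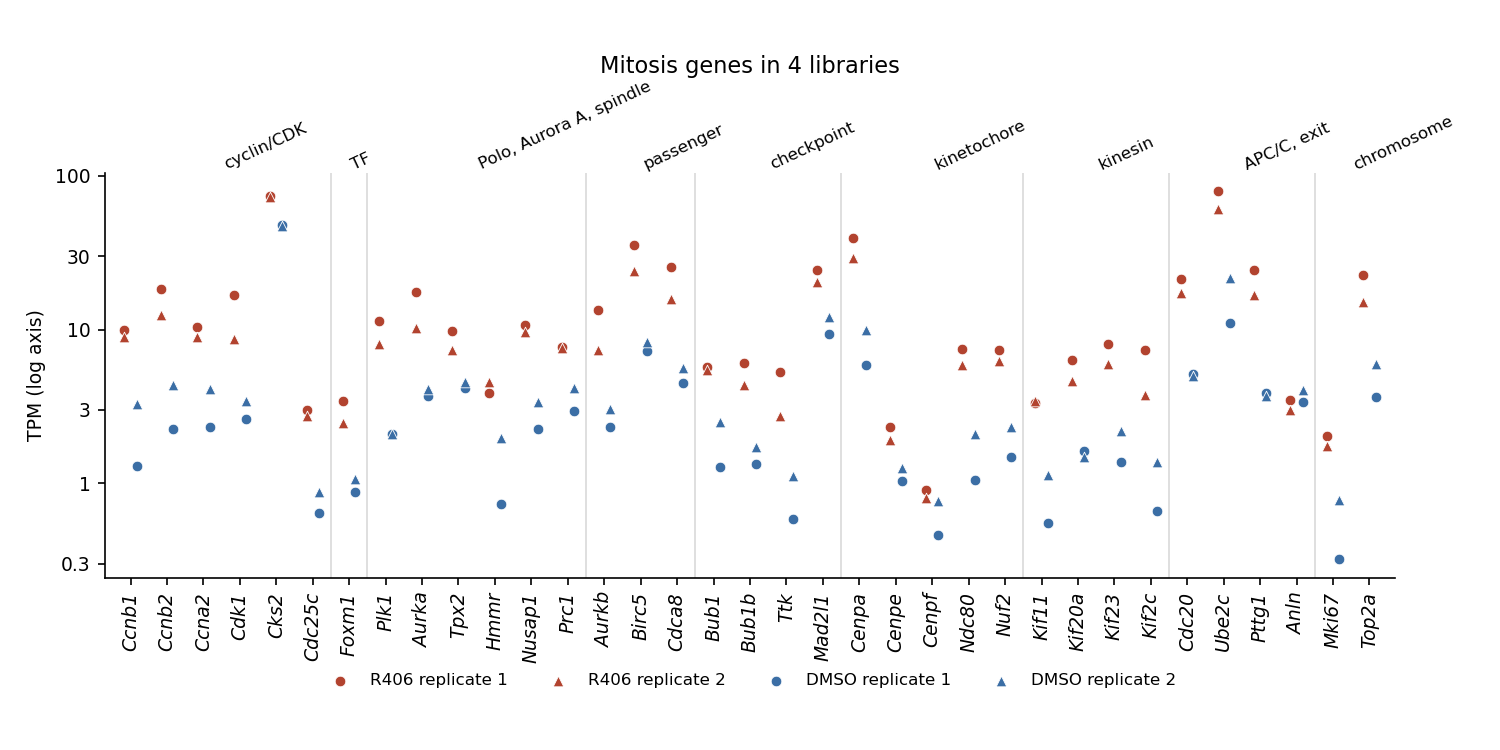
TPM of the 35 mitosis genes on a log axis in each library, R406 in red and DMSO in blue, with circles for replicate 1 and triangles for replicate 2, ordered by role. Both red points lie above both blue points in 34 genes, and Anln is the exception.

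Of the 6 genes of spindle kinases and spindle proteins, 3 rose. Plk1, a kinase needed for spindle poles and for entry into mitosis, had 11.4 and 8.03 TPM in the R406 libraries, against 2.11 and 2.09 TPM in the DMSO libraries (log2 1.77 ± 0.23, limma adjusted p = 0.0220). Aurka, the spindle pole kinase Aurora A, stood at 17.5 and 10.3 TPM with R406 and 3.68 and 4.13 TPM with DMSO (log2 1.56 ± 0.29, adjusted p = 0.0438). Nusap1, which binds microtubules near chromosomes, had 10.7 and 9.59 TPM with R406 and 2.25 and 3.39 TPM with DMSO (log2 1.56 ± 0.23, adjusted p = 0.0281). These 3 genes rose, while Tpx2, Hmmr and Prc1 did not pass. Tpx2, the activator of Aurora A, had mean levels of 8.53 ± 1.67 TPM with R406 and 4.37 ± 0.285 TPM with DMSO (mean ± SD of 2 libraries, as in later such values; adjusted p = 0.0884). Prc1, which bundles the microtubules of the central spindle, had 7.63 ± 0.0520 TPM with R406 and 3.56 ± 0.870 TPM with DMSO (adjusted p = 0.0691). The spindle protein gene Hmmr was 1 of 2 members in which R406 replicate 2 was the higher R406 library, with 3.85 and 4.58 TPM in the R406 libraries, against 0.731 and 1.96 TPM in the DMSO libraries (adjusted p = 0.0856).

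Aurora B, Survivin and Borealin are subunits of the chromosomal passenger complex, which corrects faulty attachments and guides cytokinesis. Birc5 (Survivin) rose to 35.5 and 23.9 TPM in R406-treated cells, against 7.20 and 8.31 TPM in DMSO-treated cells (log2 1.79 ± 0.25, limma adjusted p = 0.0266), and its promoter window held neither motif. Cdca8 (Borealin) rose to 25.7 and 15.7 TPM with R406, against 4.46 and 5.61 TPM with DMSO (log2 1.82 ± 0.29, adjusted p = 0.0324). Aurkb, the kinase of the complex, had 13.5 and 7.33 TPM with R406 and 2.32 and 3.04 TPM with DMSO and did not pass (adjusted p = 0.0527). In all 3 genes R406 replicate 1 was the highest library and DMSO replicate 1 the lowest.

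Of the 4 spindle checkpoint genes, which delay anaphase until chromosomes are attached, 1 rose. Bub1b, which encodes the checkpoint protein BubR1, measured 6.06 and 4.38 TPM with R406 and 1.33 and 1.72 TPM with DMSO (log2 1.29 ± 0.23, limma adjusted p = 0.0391). The checkpoint kinase genes Bub1 and Ttk had mean levels of 5.59 ± 0.146 and 4.02 ± 1.78 TPM with R406, against 1.88 ± 0.862 and 0.847 ± 0.370 TPM with DMSO, with adjusted p of 0.0601 and 0.0669. Mad2l1, whose protein binds Cdc20 and so holds back the APC/C, had 24.4 and 20.3 TPM with R406 and 9.35 and 12.0 TPM with DMSO (log2 1.00 ± 0.22, adjusted p = 0.0606). The groups did not overlap in any of the 4 genes.

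Among centromere and kinetochore genes, 3 of 4 tested rose. Cenpa, the histone H3 variant that marks centromeres, had 39.7 and 29.1 TPM in the R406 libraries, against 5.90 and 10.0 TPM in the DMSO libraries (log2 2.01 ± 0.31, limma adjusted p = 0.0302). Ndc80 and Nuf2, which pair in the complex that grips microtubules, rose by similar amounts. Ndc80 measured 7.50 and 5.85 TPM with R406 and 1.04 and 2.09 TPM with DMSO (log2 1.60 ± 0.28, adjusted p = 0.0375), and Nuf2 measured 7.40 and 6.21 TPM with R406 and 1.48 and 2.32 TPM with DMSO (log2 1.44 ± 0.23, adjusted p = 0.0334). Genes of the large kinetochore proteins gave smaller values. Cenpe, a kinetochore motor, had 2.32 and 1.90 TPM with R406 and 1.04 and 1.26 TPM with DMSO (log2 0.53 ± 0.20, adjusted p = 0.171). Cenpf was too low to be tested, at 0.899 and 0.798 TPM with R406 and 0.457 and 0.770 TPM with DMSO, where the nearest libraries of the groups almost touch.

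Kinesin motors rose in 3 of 4 cases. Kif11, the motor that pushes spindle poles apart, had 3.34 and 3.42 TPM in R406-treated cells, against 0.554 and 1.14 TPM in DMSO-treated cells (log2 1.26 ± 0.23, limma adjusted p = 0.0417). Kif20a and Kif23, motors of the central spindle needed for cytokinesis, both rose. Kif20a had 5.46 ± 1.20 TPM with R406 and 1.55 ± 0.102 TPM with DMSO (adjusted p = 0.0338), and Kif23 had 8.02 and 5.97 TPM with R406 and 1.37 and 2.17 TPM with DMSO (adjusted p = 0.0344). Kif2c, which takes microtubules apart at centromeres, had the second-highest ratio of mean TPM among the 35 genes, 5.46, yet did not pass (7.33 and 3.74 TPM with R406, 0.660 and 1.37 TPM with DMSO, adjusted p = 0.0577). In each group of Kif2c the higher library had far more than the lower.

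Genes of the APC/C and mitotic exit held the largest difference and the 1 negative value among the 34. Pttg1 encodes securin, which keeps sister chromatids together until the APC/C destroys it, and had 24.6 and 16.8 TPM in the R406 libraries, against 3.89 and 3.67 TPM in the DMSO libraries. Its log2 difference of 2.16 ± 0.24 and its 5.48-fold ratio of mean TPM were the largest of the tested members (limma adjusted p = 0.0183). Ube2c, the second most abundant of the 35 genes in both groups and the ubiquitin-conjugating enzyme of the APC/C, rose to 79.9 and 61.2 TPM with R406, against 11.1 and 21.5 TPM with DMSO (4.32-fold by mean TPM, adjusted p = 0.0358). Cdc20, the activator of the APC/C, rose to 21.2 and 17.2 TPM with R406, against 5.13 and 5.02 TPM with DMSO (log2 1.73 ± 0.20, adjusted p = 0.0185). Anln encodes anillin, a scaffold of the cleavage furrow that also binds actin outside mitosis. It had 3.46 and 2.98 TPM with R406 and 3.38 and 4.05 TPM with DMSO, the 1 member whose groups overlapped (log2 −0.16 ± 0.20, adjusted p = 0.668). By mean TPM it ranked 30 of 35 in R406-treated cells and 12 of 35 in DMSO-treated cells.

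The proliferation marker Mki67, which coats mitotic chromosomes, was low in all libraries, at 2.01 and 1.76 TPM with R406 and 0.321 and 0.776 TPM with DMSO (log2 0.91 ± 0.23, limma adjusted p = 0.0793). Top2a, the topoisomerase that untangles sister chromatids, rose to 22.5 and 15.2 TPM with R406, against 3.61 and 5.96 TPM with DMSO (log2 1.78 ± 0.31, adjusted p = 0.0377). Foxm1, the member that encodes a transcription factor of the programme, had 3.41 and 2.45 TPM with R406 and 0.875 and 1.07 TPM with DMSO (log2 0.99 ± 0.22, adjusted p = 0.0611).

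**Figure D2:**
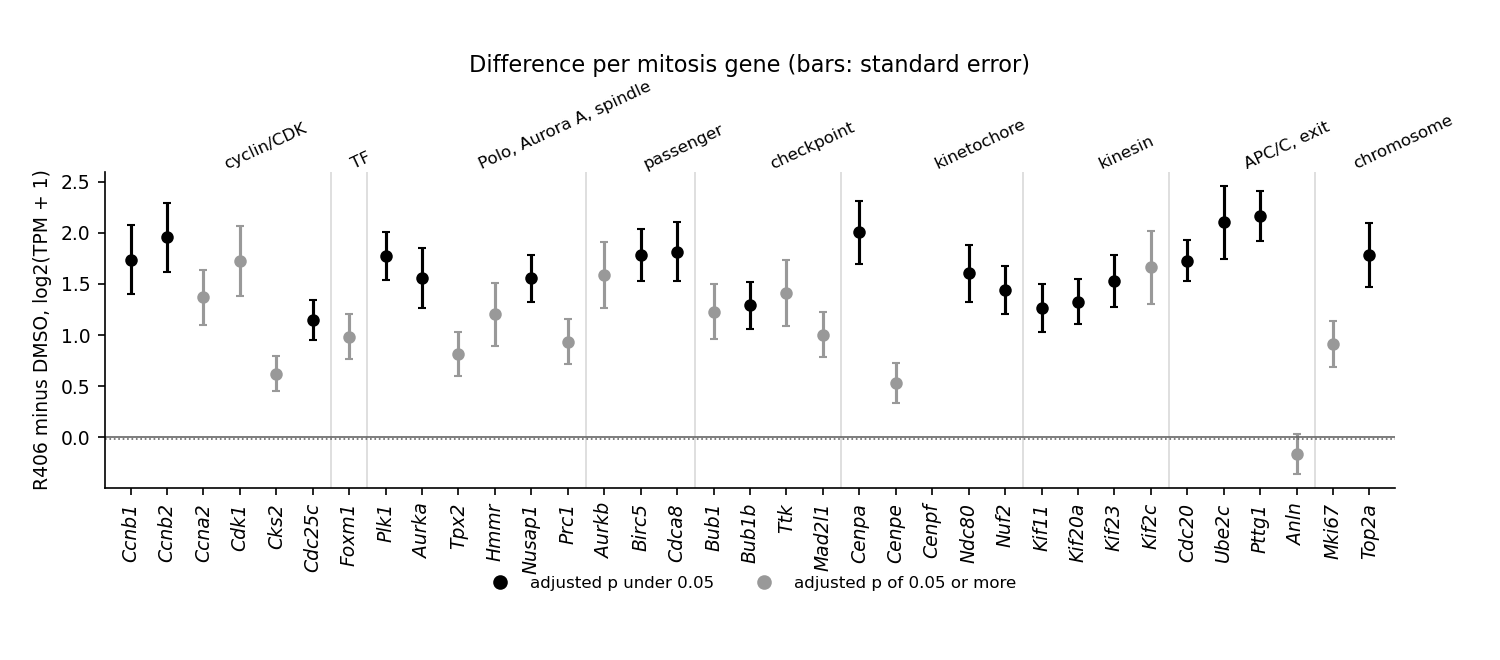
R406 minus DMSO on log2(TPM + 1) for the 34 tested mitosis genes, ordered by role, with standard errors from limma; black points passed an adjusted p of 0.05. Values run from −0.16 in Anln to 2.16 in Pttg1, and 33 of 34 are above 0.

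Across the members, ratios of mean TPM ran from 0.866 to 5.48 with a median of 3.79. On the log2(TPM + 1) scale low genes appear to change less: Mki67 had a 3.44-fold ratio of means but a log2 difference of 0.91. Of the 34 tested genes, 5 (Cdc25c, Foxm1, Ttk, Kif11 and Mki67) had a mean under 1 TPM in DMSO and entered the test through their R406 values, and 2 of them rose. Among the other 29, which had a mean of at least 1 TPM in both groups, 17 rose. The libraries of a group differed in a regular way: R406 replicate 1 exceeded R406 replicate 2 in 33 of 35 genes, and DMSO replicate 2 exceeded DMSO replicate 1 in 30 of 35, while over all genes tested these shares were 70.9% and 40.0%. The number of calls depended on the expression cutoff: when the 1 TPM cutoff was dropped, 0 of the 35 genes passed with limma. Among the fits with a single library left out, the number of calls fell most without DMSO replicate 1. Calls over all genes fell in the same leave-out, to 159 higher and 158 lower, against 593 and 564 with all libraries. The median without it was 1.30 and 33 of 34 differences remained above 0.

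Genes of mitosis outside these 35 were mostly higher too. Of 93 further mitosis genes from a list of kinetochore, condensin, kinesin, spindle, checkpoint and cytokinesis genes, 84 were tested, and 18 rose and 0 fell. Over all genes tested, 4.26% rose and 4.05% fell. The list had a median of 0.91, and 1 gene was lower at an unadjusted p under 0.05. Of the 84, 21 averaged under 1 TPM in DMSO and entered the test through their R406 values, Sgo1 and Cdca2 among them. They hold 8 of the 18 calls. Kif22, which encodes a mitotic kinesin, rose and had 12.1 and 8.86 TPM in R406-treated cells, against 1.71 and 2.39 TPM in DMSO-treated cells (log2 1.90 ± 0.24, limma adjusted p = 0.0213). Racgap1, a partner of Kif23 in the central spindle, rose and had 20.1 and 13.9 TPM with R406 and 4.13 and 4.29 TPM with DMSO (adjusted p = 0.0240). Sgo1, which protects cohesin at centromeres, rose and had 2.67 and 3.20 TPM with R406 and 0.390 and 0.558 TPM with DMSO (adjusted p = 0.0256). The phosphatase gene Cdkn3, the chromosome protein gene Cdca2 and Pimreg rose too, with log2 differences of 1.58, 1.33 and 1.69. In this list 11 genes had a value below 0, all without a call, and the lowest was the kinesin gene Kif2a, named after its values were seen (log2 −0.67, adjusted p = 0.107). Without DMSO replicate 1, 0 of the 84 passed with limma, and without R406 replicate 2, 32 did.

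Genes of S phase were mostly higher as well. Of 48 DNA replication and S phase genes, all tested, 12 rose and 0 fell, where 4.26% of all genes tested rose and 4.05% fell. The list had a median of 0.98, and 1 gene was lower at an unadjusted p under 0.05. That lower gene was Dut, named after its values were seen. It had 73.2 and 55.2 TPM with R406 and 189 and 133 TPM with DMSO (log2 −1.31, limma adjusted p = 0.0532). Of the 48, 5 entered the test through their R406 values, Pole among them, and hold 2 of the 12 calls. Mcm5, a subunit of the replicative helicase, had 21.6 and 13.5 TPM in the R406 libraries, against 4.08 and 4.87 TPM in the DMSO libraries (log2 1.73 ± 0.28, limma adjusted p = 0.0330). The single-strand binding subunit gene Rpa3, the polymerase gene Pole, thymidylate synthase (Tyms), the primase gene Prim1 and Uhrf1, which keeps DNA methylation through replication, rose with log2 differences of 1.09 to 1.75. The number of calls was 0 without DMSO replicate 1, 2 without DMSO replicate 2, 6 without R406 replicate 1 and 21 without R406 replicate 2.

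**Figure D3:**
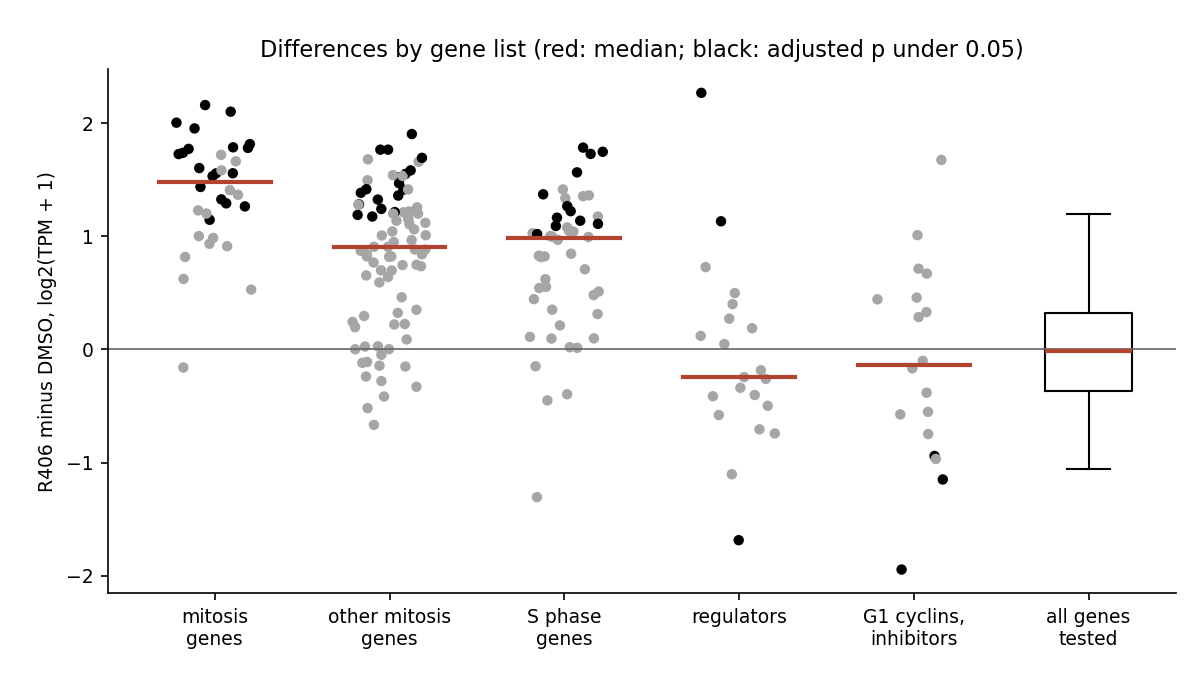
R406 minus DMSO on log2(TPM + 1) for the tested genes of 5 lists, with a red line at the median and black points at an adjusted p under 0.05; the box of all genes tested spans the quartiles and its whiskers the 5th to 95th percentile. Medians are 1.48 for the mitosis genes, 0.91 for the other mitosis genes, 0.98 for S phase genes, −0.24 for transcription factors of the programme, −0.13 for G1 genes and brakes, and −0.02 for all genes.

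The D cyclins, which carry growth signals into G1, were the most abundant of the cyclins plotted, and Ccnd1 and Ccnd2 fell with R406. Ccnd1 fell to 58.8 and 49.5 TPM in the R406 libraries, against 227 and 196 TPM in the DMSO libraries (log2 −1.95 ± 0.20, limma adjusted p = 0.0165). Ccnd2 fell to 69.4 and 66.5 TPM with R406, against 127 and 136 TPM with DMSO (log2 −0.94 ± 0.18, adjusted p = 0.0430). The third D cyclin, Ccnd3, had 83.0 ± 22.9 TPM with R406 and 139 ± 31.3 TPM with DMSO (adjusted p = 0.185). Of the kinases of D cyclins, Cdk6 fell to 1.19 and 1.27 TPM with R406, against 3.90 and 3.98 TPM with DMSO (log2 −1.15 ± 0.18, adjusted p = 0.0311). Cdk4, far more abundant, did not pass, at 362 and 249 TPM with R406 and 269 and 211 TPM with DMSO (log2 0.33 ± 0.27, adjusted p = 0.498). Summed TPM of the 3 D cyclins was 5.86 and 6.04 times that of Ccna2, Ccnb1 and Ccnb2 in the R406 libraries, against 87.6 and 38.3 times in the DMSO libraries. The E cyclins, which act at the start of S phase, did not pass. Ccne1 had 15.3 ± 2.95 TPM with R406 and 16.9 ± 1.04 TPM with DMSO (adjusted p = 0.714), while Ccne2 had 5.60 ± 1.03 TPM with R406 and 2.41 ± 0.916 TPM with DMSO (adjusted p = 0.0998). Ccnd3, Cdk4, Ccne1 and Ccne2 were named after their values were seen.

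**Figure D4:**
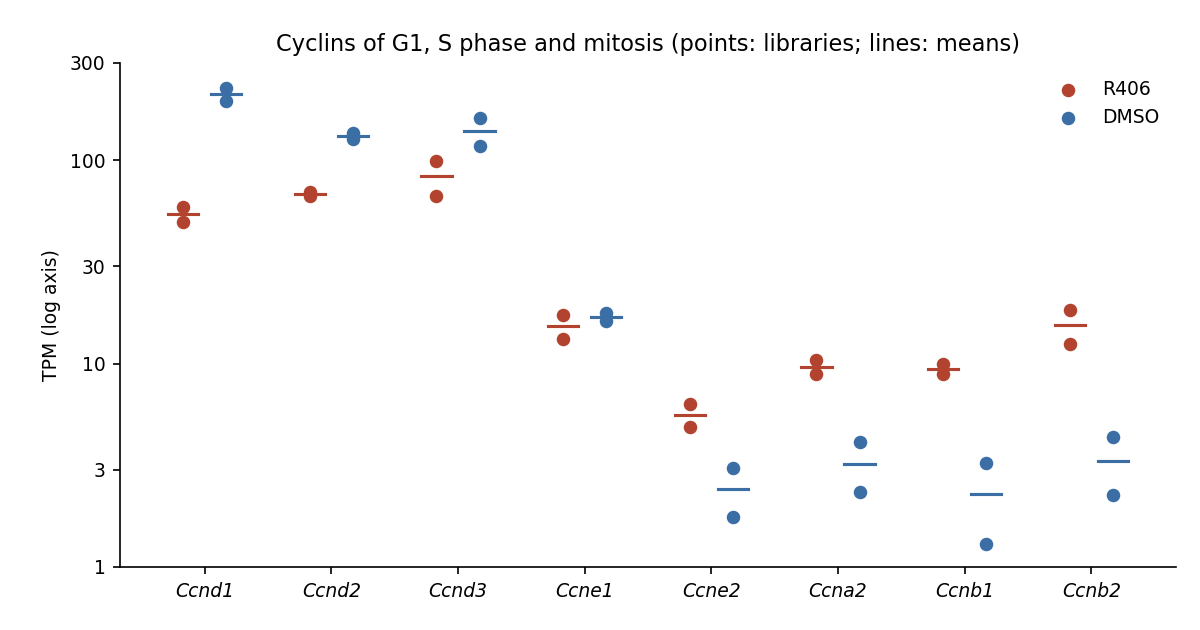
TPM on a log axis of the D, E, A and B cyclins in R406 (red) and DMSO (blue) libraries, with lines at the means. Ccnd1 and Ccnd2 are lower in R406-treated cells, Ccnb1 and Ccnb2 are higher, and Ccne1 overlaps.

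Of 18 G1 cyclins, G1 kinases and brakes on the cell cycle, 3 fell (Ccnd1, Ccnd2 and Cdk6) and 0 rose, with a median of −0.13. Of all genes tested, 4.05% fell and 4.26% rose. At an unadjusted p under 0.05, 4 of the 18 were higher and 6 lower. Of the 12 inhibitors and brakes among the 18, 0 passed limma's threshold. Of these 12, 3 were higher and 2 lower at an unadjusted p under 0.05, where 12.3% and 14.5% of all genes tested were so. Ccng1, a p53 target, had 231 and 284 TPM with R406 and 447 and 564 TPM with DMSO (log2 −0.97 ± 0.23, adjusted p = 0.0691). Pkmyt1, a kinase that holds Cdk1 inactive, had 10.3 and 3.99 TPM with R406 and 1.84 and 0.955 TPM with DMSO (adjusted p = 0.0927). The p21 gene Cdkn1a, named after its values were seen, was abundant in every library, at 666 and 592 TPM with R406 and 994 and 852 TPM with DMSO (log2 −0.55 ± 0.20, adjusted p = 0.163). Of the 3 calls, 0 passed without DMSO replicate 1 and 1 passed without DMSO replicate 2 or without R406 replicate 1.

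Of 21 tested factors known to drive or restrain this programme, 2 rose and 1 fell, where 4.26% and 4.05% of all genes tested did so, and these counts are near those shares. The median was −0.24. Mybl2 (B-MYB), the partner of MuvB in S phase and G2, rose to 23.1 and 11.7 TPM in R406-treated cells, against 2.25 and 3.05 TPM in DMSO-treated cells, a log2 difference of 2.27 ± 0.36 (limma adjusted p = 0.0315). E2f2, an activating E2F, rose to 6.56 and 5.17 TPM with R406, against 1.84 and 2.41 TPM with DMSO (adjusted p = 0.0473). E2f8, an atypical E2F that represses, fell to 2.73 and 2.19 TPM with R406, against 10.2 and 9.99 TPM with DMSO (log2 −1.69 ± 0.19, adjusted p = 0.0184). The activator E2f1 had 15.4 and 12.3 TPM with R406 and 38.1 and 24.7 TPM with DMSO and did not pass (log2 −1.10 ± 0.28, adjusted p = 0.0791). The repressor E2f6 (log2 −0.71, adjusted p = 0.0978) and the NF-Y subunit gene Nfyb (log2 −0.74, adjusted p = 0.0998) did not pass. Without DMSO replicate 1 none of these factors passed, and without DMSO replicate 2 or without R406 replicate 1, 1 passed as higher and 1 as lower.

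CHR and E2F core motifs differed between mitosis genes and S phase genes, and CCAAT differed less, as a description of sequence. The table of promoters held 30 windows for 29 of the 35 members, not for Aurkb, Foxm1, Cdc25c, Kif20a, Ccna2 and Tpx2. A CHR was found in 22 of 30 windows (73.3%), where 19.2% of all 32851 windows hold it, and in 20 of 30 (66.7%) its first base lay within 50 bases of the start, against 5.31% of all windows. That distance was chosen after the positions were seen. A CCAAT box was found in 22 of 30 windows (73.3%, against 37.4% of all), and both in 63.3%, against 7.52%. The E2F core (TTCCCGC or TTGGCGC, either strand) was found in 10.0% of member windows, against 11.7% of those of genes tested and 6.81% of all. Among genes tested a CHR was found anywhere in 13.6% of windows, within 50 bases in 3.51%, and a CCAAT box in 37.6%. Of the 43 windows of S phase genes, 4.65% held a CHR within 50 bases and 53.5% an E2F core. The further mitosis genes lay between, at 48.3% and 25.8% of 89 windows. TTCGAA reads the same on both strands, and an E2F core read as GCGCCAA can overlap a CCAAT box. Within the members, 12 of 17 that rose and 9 of the 12 others, the untested Cenpf among them, held a CHR. The counts for CCAAT were the same. Nearly all members were higher, 33 of them at an unadjusted p under 0.05 with limma. This split therefore cannot show whether the motifs go with the difference. Pttg1, which differed most, held neither, but the start used for its window lies 1482 bases inside the annotated gene, so that the outermost start is outside it. Those of Kif2c and Aurka lie 3852 and 316 bases inside.

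**Figure D5:**
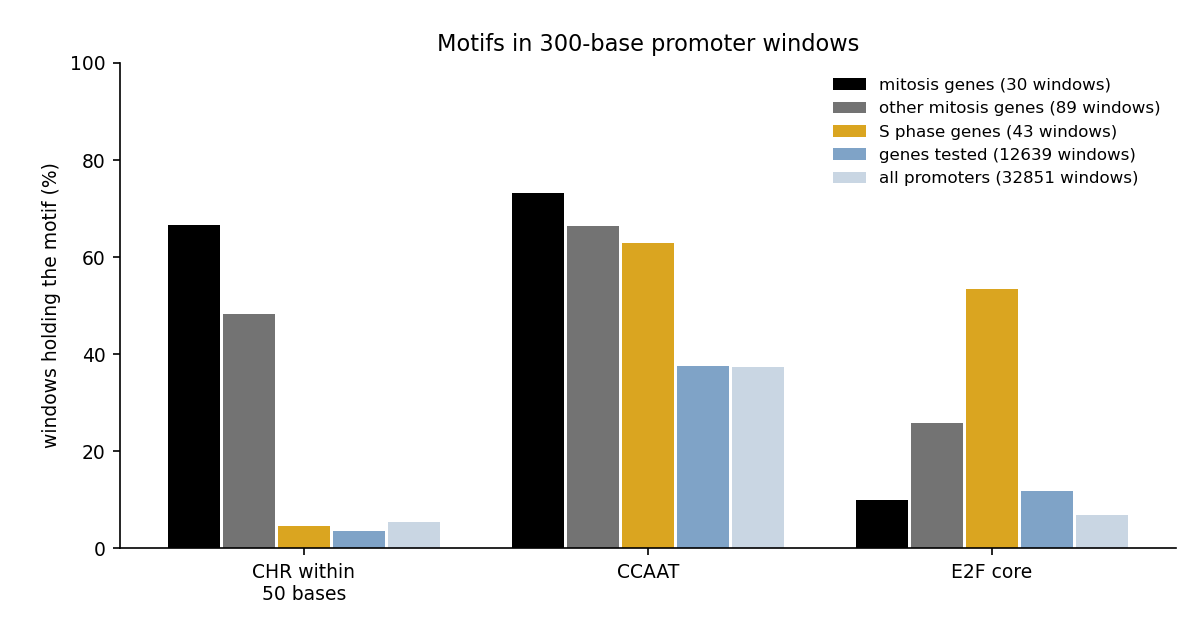
Share of 300-base promoter windows (percent) that hold a CHR within 50 bases of the start, a CCAAT box or an E2F core, for 3 gene lists, the genes tested and all promoters of the table. CHR is found within 50 bases in 66.7% of windows of mitosis genes and 4.65% of those of S phase genes. The E2F core is found in 10.0% and 53.5%, and CCAAT in 73.3% and 62.8%.

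Nfatc1 peaks were about as common at mitosis genes as at other expressed genes. A peak of the R406 list lay within 2 kb of 23 of 35 members, counting from either end of the gene, against 67.5% of genes tested that had a position. For the DMSO list it was 19 of 35, against 49.7%. All 19 genes with a peak in the DMSO list also had a peak in the R406 list, which is the longer list (36885 and 21246 peaks), and 4 genes had a peak in the R406 list alone: Cdc25c, Cenpe, Cenpf and Kif11. With 1 library per condition and lists of unequal length, no change is read from this. Of the members that rose in RNA, 11 of 19 had a peak in the R406 list, and of the other members 12 of 16. Several peaks sat at the transcript start. The nearest summit to the start of Cdk1 (chr10:69335146-69352912, GRCm38) lay at 45 bases in the R406 list and −87 bases in the DMSO list, with the authors' fold enrichment of 32.3 and 16.8. At Ndc80 it lay at −32 and −83 bases, with folds of 24.0 and 8.74, and at Anln at −1 and 93 bases, with folds of 13.3 and 15.3. Plk1, Ccnb1, Pttg1 and Cenpa, by contrast, had no peak within 2 kb in either list.

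The same libraries differed in cell type markers. Beside the counts of calls that follow, 4.26% of all genes tested rose and 4.05% fell. All 10 fibroblast markers were expressed, with a summed TPM of 4555 and 3400 in the R406 libraries, against 3214 and 2837 in the DMSO libraries, and 1 rose and 1 fell. Epithelial markers rose in 8 of 9 tested genes of 10, with a summed TPM of 830 and 470 with R406, against 116 and 130 with DMSO. Markers of extraembryonic endoderm, some of which (Pdgfra, Col4a1) fibroblasts also express, rose in 6 of 10, with sums of 714 and 472 with R406, against 333 and 319 with DMSO. Macrophage markers fell in 8 of 9 tested genes of 12. Their sums were 21.6 and 22.8 with R406, against 285 and 240 with DMSO, and Ptprc and Itgam were listed at 0 in both R406 libraries. Of those that fell, Csf1r, Tyrobp, Fcer1g, C1qa, C1qb and C1qc averaged under 1 TPM with R406 and entered the test through their DMSO values. The epithelial marker Esrp1 and the endoderm marker Sall4, which rose, averaged under 1 TPM with DMSO and entered through their R406 values. Of 6 endothelial markers 1 of 4 tested rose, with sums of at least 16.2 with R406, against 11.9 and 11.9 with DMSO. Ribosomal protein genes took 19.8% and 23.4% of TPM with R406 and 14.4% and 16.2% with DMSO. The part of these differences in the levels of mitosis genes was not tested.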

How the data were processed

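Per the submitters' processing notes, the authors aligned RNA-seq reads with HISAT2 2.1.0 and made TPM per gene with StringTie 2.0 on mm10. They deposited TPM for 53715 genes, and the values of each library's own file were equal to those of the joint table. A NEBNext Ultra kit was used, per the labels' protocols, and no strand-specific counting is stated, so antisense and overlapping genes, and genes with near-identical copies, are uncertain. Peaks came from Bowtie2 2.2.5 and MACS2 2.1.2, per the same notes. The deposited peak lists give a fold enrichment, a score, and −log10 p and −log10 q for each peak, as the authors' caller wrote them. The fold and −log10 q were used, and the score and −log10 p were not. Peaks were compared per library, and the blank library is not analysed here.

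TPM values were tested as log2(TPM + 1) with limma 3.58.1 in R 4.3.3, with an intensity trend, over the 13929 genes that averaged 1 TPM or more across 4 libraries, with Benjamini-Hochberg adjustment over all of them. Replicate numbers were not a term. The code was tested on simulated data. The 35 genes and the other lists were chosen with earlier results of these data known. All 35 members are described, and of each other list up to 6 tested genes with the smallest p. Alternatives were another pseudocount, other filters and scalings, a replicate block and leaving out each library. For peaks, a distance of 10 kb, overlap with the gene itself and a −log10 q of at least 5 were tried. Promoters are RefSeq sequence on GRCm38.p6.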

Additional observations from a re-analysis of the deposited data

How the results depend on the processing

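The sign of every tested mitosis gene held in each alternative fit that tested it: 33 were above 0 and Anln was below 0. The number of calls depended on the filter and on DMSO replicate 1. With a library left out, the lone library of its group is assumed to vary like the other group; then calls ranged from 1 to 25 for mitosis genes (rose), from 0 to 32 for the other mitosis genes (rose), from 0 to 21 for S phase genes that rose and from 0 to 1 for those that fell. They ranged from 0 to 2 and from 0 to 1 for transcription factors that rose and fell, from 0 to 1 and from 0 to 2 for G1 genes and brakes that rose and fell, and from 159 to 914 and from 158 to 574 for all genes that rose and fell. Of the 19 mitosis genes that rose, 15 passed in at least 3 of the 4 leave-outs and 1 (Pttg1) in all 4. Without DMSO replicate 1, 2253 genes in all had an unadjusted p under 0.05.

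With a mean of at least 5 TPM, 10 of 19 tested mitosis genes rose, with 6 of the other mitosis genes, 7 S phase genes, 1 transcription factor, and 311 higher and 332 lower genes in all. With no filter on low values, 0 genes passed with limma in any list or direction, and 5394 genes had an unadjusted p under 0.05. Adjusted p of the mitosis genes then ran from 0.0609 to 0.730. Quantile normalization gave 34 of the other mitosis genes and 19 S phase genes higher, 1 S phase gene and 2 transcription factors lower, and 850 lower genes in all. It also turned the sign of the endothelial marker Tek, not called in either fit, to a log2 difference of −0.059. Median centring gave 37 of the other mitosis genes, 21 S phase genes and 1 G1 gene higher, 1 S phase gene and 2 transcription factors lower, and 933 higher genes in all. Without mitochondrial and ribosomal protein genes, 40 of the other mitosis genes were higher, 1 S phase gene and 2 transcription factors were lower, and 939 genes in all were higher. The causes of these differences in calls were not tested. With a pseudocount of 0.1, 19 mitosis genes were higher, with Ccnb1 and Kif11 no longer called and Cdk1 and Aurkb called in their place. Of 917 repeat fits of 86 named genes, 709 kept sign and side of the threshold, 138 lost the call, 69 gained it and 1 changed sign.

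With the replicate number as a block, 32 mitosis genes, 52 of the other mitosis genes, 31 S phase genes and 6 G1 genes and brakes were higher. Lower were 2 of the other mitosis genes, 2 S phase genes, 5 transcription factors and 8 G1 genes and brakes, and in all 2128 genes were higher and 2535 lower. Same-numbered libraries deviated together with r = 0.556 over all genes tested and r = 0.172 over the 34 tested mitosis genes. There are only 2 pairs and no label ties them, and whether a number marks a shared batch was not tested.

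A peak was within 10 kb of 27 members in the R406 list and 22 in the DMSO list, overlapped the gene itself in 20 and 16, and was within 2 kb at a −log10 q of at least 5 in 22 and 18. TPM gives no read counts, so the precision of low genes such as Cenpf and Mki67 is unknown.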
